A study of Arabidopsis thaliana with 12 samples.

Results

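The 10 enzyme genes of the Arabidopsis flavonoid pathway described here were chosen by locus, as the 5 enzymes that lead from the phenylpropanoid precursor to flavonols (CHS, CHI, F3H, F3PH and FLS1), the anthocyanin-branch enzymes DFR, LDOX and UF3GT, and the flavonoid glycosyltransferases UGT78D1 and UGT78D2. They are 10 of 32399 genes in the deposited table, and all 10 passed the filter on low counts, as did 21870 genes in all. RNA was sequenced from whole seedlings, 5 days old, grown in long days at 22 °C, moved to 29 °C or left at 22 °C for 12 h, and collected at zeitgeber time 12 h. The 4 groups were the line labelled rve5-2 at 29 °C, rve5-2 at 22 °C, wild type (WT) at 29 °C and WT at 22 °C, with 3 libraries each. By its title the study concerns REVEILLE5 (RVE5), a Myb-like relative of the clock factor CCA1, in growth of the hypocotyl in warmth.

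The rve5-2 label names an allele of RVE5, yet RVE5 transcript was higher in every library so labelled. RVE5 had 1417, 1325 and 1246 CPM in rve5-2 at 29 °C, against 16.7, 13.4 and 15.1 CPM in WT at 29 °C (CPM, counts per 1e6 counts after TMM scaling, a correction for library composition). At 22 °C it had 1075, 939 and 1018 CPM in rve5-2, against 14.6, 15.8 and 14.4 CPM in WT. Every genotype comparison below is therefore one between libraries with high and with low RVE5 transcript, and no loss of function is assumed. Below, rve5-2 stands for the libraries so labelled. The labels state neither the kind of allele nor whether each replicate was a culture of its own; the p-values thus speak only of variation among these libraries.

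Flavonoids are plant pigments and ultraviolet screens made from phenylalanine. Phenylpropanoid enzymes supply coumaroyl-CoA, a short shared route turns it into dihydroflavonols, and these are drawn either into flavonols, the colourless sunscreens of seedlings, or into anthocyanins, the red pigments. In Arabidopsis the genes of the shared route and of flavonol synthesis are known as early genes, driven by the MYB factors MYB11, MYB12 and MYB111, and those of the anthocyanin branch as late genes, driven by complexes of MYB, bHLH and WD40 proteins.

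Positions are those of the deposited table, whose build is TAIR10 by the submitters' processing notes, and span each whole gene. CHS (AT5G13930, TT4 in the table, chr5:4488688-4490264, plus strand) is chalcone synthase, the entry enzyme. CHI (AT3G55120, TT5, chr3:20430114-20431470, minus strand) closes the chalcone to a flavanone. F3H (AT3G51240, chr3:19025192-19026872, plus strand) makes the dihydroflavonol. F3PH (AT5G07990, TT7, chr5:2560394-2563109, plus strand) is the cytochrome P450 that adds a hydroxyl group on the way to quercetin and cyanidin. FLS1 (AT5G08640, chr5:2803957-2805606, plus strand) is the main flavonol synthase. DFR (AT5G42800, chr5:17164141-17165918, minus strand) is dihydroflavonol reductase, the first step towards anthocyanins. LDOX (AT4G22880, chr4:12004768-12006209, minus strand) makes the coloured anthocyanidin. UF3GT (AT5G54060, chr5:21936879-21938369, minus strand) adds xylose to anthocyanins. UGT78D1 (AT1G30530, chr1:10814659-10816583, plus strand) attaches rhamnose to flavonols. UGT78D2 (AT5G17050, chr5:5607788-5609492, minus strand) attaches glucose to flavonols and anthocyanidins. CHS overlaps AT5G13940 and F3H overlaps AT3G51238 in the table, and the TruSeq kit does not mark strand, so reads from an overlap cannot be assigned to 1 gene.

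The 250 bases before each gene's start were searched on both strands for 4 motifs. The G-box, CACGTG, was found before 4 of 10 members (CHI, F3H, DFR and UF3GT), beside 6.86% of the 32398 promoters searched. Its core, ACGT, which every G-box holds, was found before 6 of 10 members (those 4, CHS and FLS1), beside 43.9% of promoters. The AC-rich MYB element ACCTACC was found before 2 of 10 (CHS and CHI), beside 1.18% of promoters. The evening element AAATATCT, a target of REVEILLE-type Myb factors, was found before 0 of 10 members and in 4.39% of promoters. F3PH, LDOX, UGT78D1 and UGT78D2 held none of the 4 in this window. A match is a string of letters, not a shown binding site. The windows below are 30 bases each, read in the direction of the gene from the TAIR10.1 genome, whose coordinates have the same frame as the table's. They are shown because CHS and CHI, the first pair of enzymes, are the members with the MYB element. Those of DFR and UF3GT are shown because each gene holds a pair of G-boxes. Capitals mark the motif.
CHS MYB element, chr5:4488607-4488636, plus strand: ccgtccatctaACCTACCacactctcatct
CHI MYB element, chr3:20431498-20431527, minus strand: taactattgctACCTACCcttctctcttct
CHI G-box, chr3:20431541-20431570, minus strand: aaaacgaaagtaCACGTGcttacacatcca
F3H G-box, chr3:19024942-19024971, plus strand: cCACGTGatttctccacagaccacaagcat
FLS1 ACGT core, chr5:2803897-2803926, plus strand: ccaagatttcgccACGTcctcacttcctcc
DFR first G-box, chr5:17166029-17166058, minus strand: accaacgttcccCACGTGcttctccggttg
DFR second G-box, chr5:17166006-17166035, minus strand: ccggttggtactCACGTGaccggcagcttc
UF3GT first G-box, chr5:21938550-21938579, minus strand: cccatcaattacCACGTGaagtctggtttt
UF3GT second G-box, chr5:21938507-21938536, minus strand: ttacgataccatCACGTGtttgcacttacc

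The MYB element began 70 bases before the start of CHS and 46 bases before that of CHI. The G-box began 88 bases before the start of CHI and 249 bases before that of F3H. In DFR the pair began 128 and 105 bases before the start, and in UF3GT 198 and 155 bases before it.

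Libraries held 65.9 to 89.1 M counts (M, 1e6). Low counts piled up at a spacing of 3.74, so 1 sequenced fragment seems to have added more than 1 count, and the totals would stand for 17.6 to 23.8 M fragments. The thinnest member, UF3GT, had between 50 counts (about 13.4 fragments at that spacing) and 363 counts (about 97.1 fragments) in a library, whereas CHS had at least 9239 counts. Transcripts that mark root tissue differed strongly between temperatures. The summed level of 14 root markers was 23.0 to 56.4 CPM in rve5-2 at 29 °C, 153 to 264 CPM in rve5-2 at 22 °C, 6.89 to 57.3 CPM for WT at 29 °C and 89.4 to 187 CPM for WT at 22 °C. At the low end stood WT at 29 °C replicate 1, the lowest of its group in 14 of 14 root markers, with EXPA18 at a count of 0; no marker was at 0 in any other library. In these bulk samples fewer cells of a type and less RNA per cell cannot be told apart. The 8 green tissue markers summed to 63376 to 73812 CPM in rve5-2 at 29 °C, 47559 to 52989 CPM in rve5-2 at 22 °C, 47217 to 63772 CPM for WT at 29 °C and 41774 to 45325 CPM for WT at 22 °C.

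**Figure D1:**
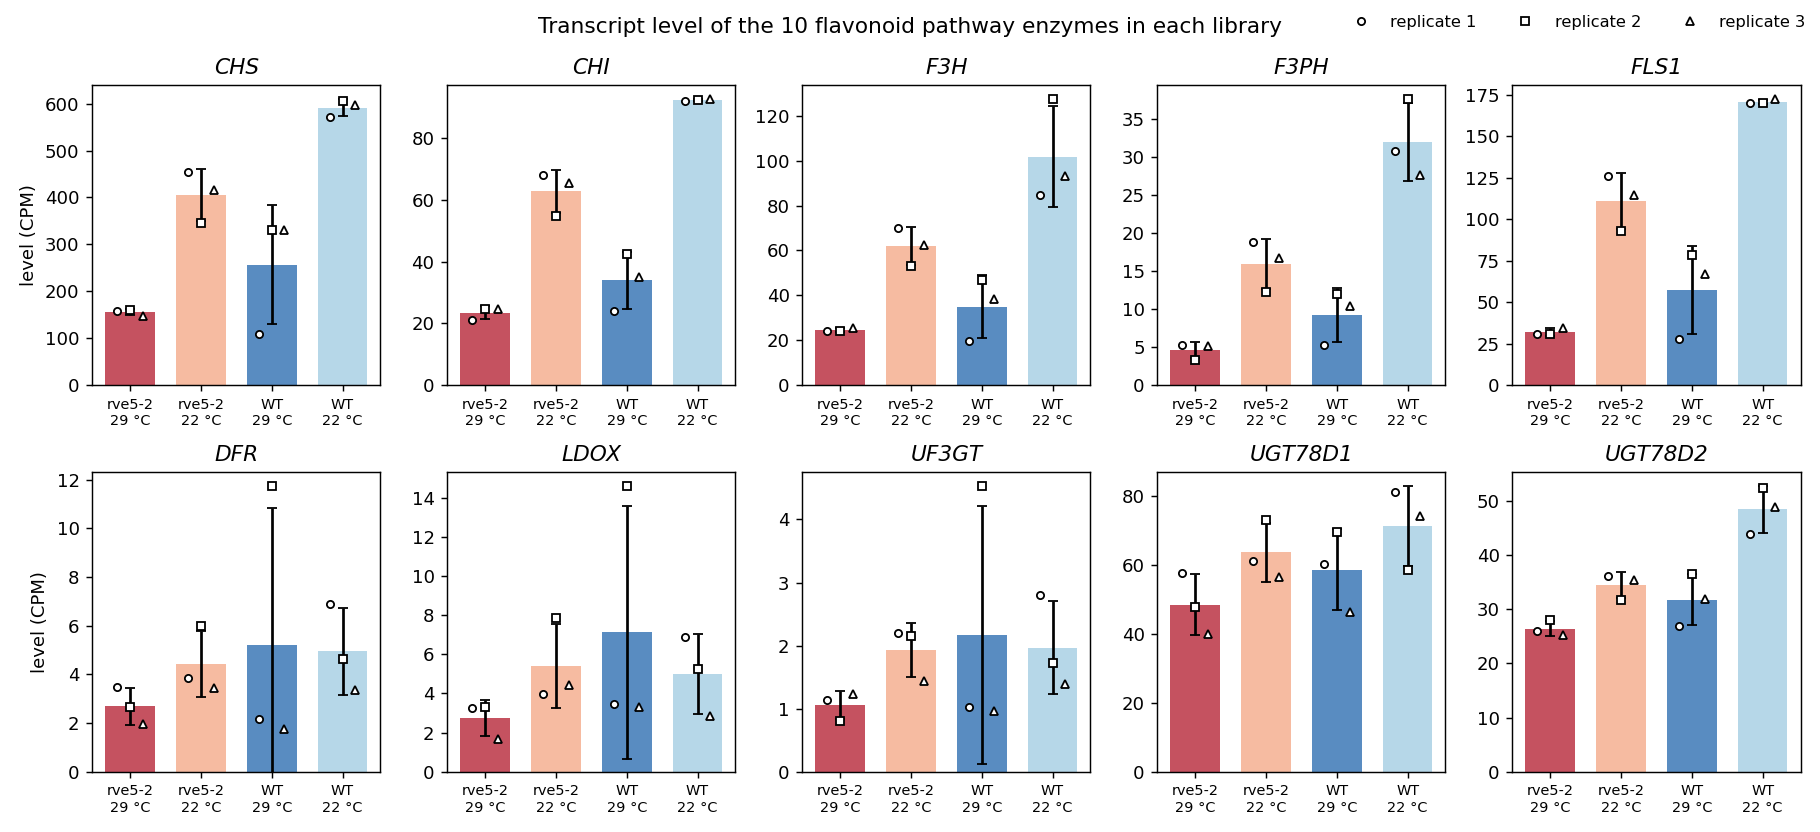
Level of each of the 10 enzyme genes in CPM (y axis, linear from 0, scaled per gene) in the 4 groups (x axis). Bars are means, error bars are SD over 3 libraries (the lower end of the bar for DFR in WT at 29 °C falls below 0 and is not drawn), and symbols mark the replicates. CHS, CHI, F3H, F3PH, FLS1 and UGT78D2 lay lower in every 29 °C library than in every 22 °C library of the same genotype, and DFR, LDOX and UF3GT were highest in WT at 29 °C replicate 2.

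Between genes, levels were compared per transcript length, with the authors' FPKM (fragments per kilobase of transcript and per unit of library size). In rve5-2 at 29 °C the mean level of CHS was 96.0 ± 2.96 FPKM (SD, n = 3), ahead of UGT78D1 (24.4 FPKM), CHI (23.3 FPKM) and FLS1 (19.8 FPKM), whose libraries overlapped from one to the next. In rve5-2 at 22 °C CHS stood at 269 ± 35.9 FPKM, then FLS1 at 73.5 FPKM and CHI at 66.7 FPKM, which overlapped. WT at 29 °C had 173 ± 91.2 FPKM of CHS, then FLS1 (38.6 FPKM), CHI (36.3 FPKM), UGT78D1 (31.7 FPKM), F3H (23.2 FPKM) and UGT78D2 (20.7 FPKM), each overlapping the next. In WT at 22 °C the order was CHS (404 ± 20.5 FPKM), FLS1 (116 FPKM), CHI (101 FPKM) and F3H (68.9 FPKM), with no overlap between neighbours.

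CHS was thus the most abundant member in all 4 groups and UF3GT, at 0.65, 1.27, 1.46 and 1.33 FPKM in the same order of groups, the least by mean. LDOX and DFR overlapped each other in each group. At 29 °C their libraries also overlapped those of F3PH, whereas at 22 °C F3PH stood above both in either genotype. UGT78D1, was at place 5 among the members at 22 °C in both genotypes, was at place 2 in rve5-2 at 29 °C. The summed FPKM of the 10 members was 201 ± 3.49 in rve5-2 at 29 °C, 524 ± 55.9 in rve5-2 at 22 °C, 340 ± 145 for WT at 29 °C and 789 ± 41.7 for WT at 22 °C.

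**Figure D2:**
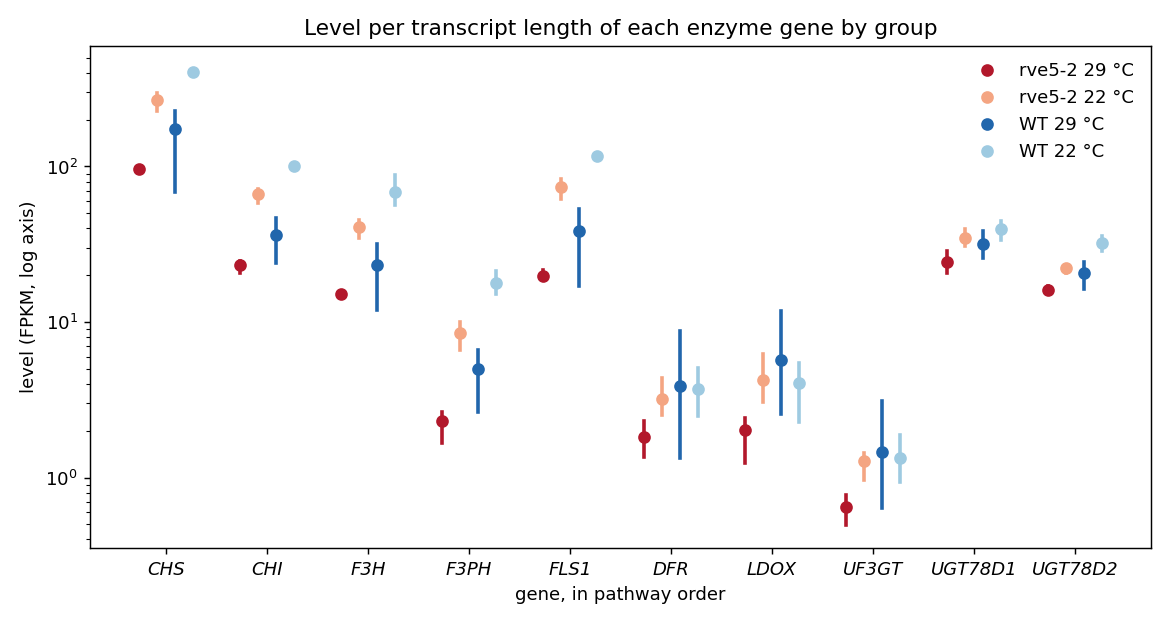
Mean FPKM (points, log axis) and range over 3 libraries (vertical lines) of each enzyme gene, in pathway order, for the 4 groups. CHS was highest in each group, from 96.0 FPKM in rve5-2 at 29 °C to 404 FPKM in WT at 22 °C, and UF3GT lowest.

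Warmth was compared within each genotype to ask how the pathway stood after 12 h at 29 °C. In both genotypes 6 of the 10 members fell and 0 rose: the whole route to flavonols, CHS, CHI, F3H, F3PH and FLS1, and the glucosyltransferase UGT78D2. Among all genes tested 13.0% were called lower and 13.0% higher in rve5-2, and 7.41% lower and 8.08% higher in WT (edgeR quasi-likelihood test, adjusted p under 0.05 over all genes). The median log2 fold change of the members was -1.16 in rve5-2 and -0.91 in WT, beside a median near 0 over all genes (-0.005 and 0.002).

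CHS had 158, 160.0 and 148 CPM in rve5-2 at 29 °C, against 455, 345 and 415 CPM in rve5-2 at 22 °C. In WT it had 109.8, 329.7 and 332 CPM at 29 °C, against 572, 607 and 597 CPM at 22 °C. Temperatures did not overlap in either genotype, and replicate 1 of WT at 29 °C lay far below the other 2 libraries of its group. The log2 fold changes were -1.38 in rve5-2 (SE 0.30, edgeR adjusted p = 0.00587) and -1.20 in WT (SE 0.30, edgeR adjusted p = 0.0183). The WT call for this entry enzyme was the least firm of the 6, with an edgeR adjusted p of 0.0531 without WT at 22 °C replicate 3 and of 0.0839 when only the groups compared were fitted.

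CHI, the second enzyme, had 21.1, 24.7 and 24.6 CPM in rve5-2 at 29 °C, against 68.0, 54.9 and 65.5 CPM in rve5-2 at 22 °C. In WT it had 24.1, 42.4 and 35.1 CPM at 29 °C, against 91.96, 92.2 and 92.6 CPM at 22 °C. Both 29 °C groups lay wholly below their 22 °C groups, and the WT libraries at 22 °C were almost level. CHI had the smallest adjusted p of the members in both genotypes, with a log2 fold change of -1.42 in rve5-2 (SE 0.16, edgeR adjusted p = 0.000156) and of -1.45 in WT (SE 0.16, edgeR adjusted p = 0.000313).

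F3H, which makes the dihydroflavonol that both branches share, had 24.1, 24.1 and 25.5 CPM in rve5-2 at 29 °C, against 70.1, 53.2 and 62.5 CPM in rve5-2 at 22 °C. In WT it had 19.4, 46.7 and 38.5 CPM at 29 °C, against 84.9, 127 and 93.0 CPM at 22 °C. Again the temperatures did not overlap, while WT spread more widely than rve5-2 at 29 °C. Its log2 fold changes were -1.33 in rve5-2 (SE 0.25, edgeR adjusted p = 0.00285) and -1.54 in WT (SE 0.25, edgeR adjusted p = 0.00251).

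F3PH, the hydroxylase of the quercetin route, had 5.25, 3.35 and 5.14 CPM in rve5-2 at 29 °C, against 18.7, 12.2 and 16.7 CPM in rve5-2 at 22 °C. In WT it had 5.22, 11.9 and 10.4 CPM at 29 °C, against 30.7, 37.5 and 27.6 CPM at 22 °C. This was the steepest fall among the members in WT, 3.48-fold, and it was 3.46-fold in rve5-2. The log2 fold changes were -1.79 in rve5-2 (SE 0.28, edgeR adjusted p = 0.00101) and -1.80 in WT (SE 0.28, edgeR adjusted p = 0.00184).

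FLS1, the flavonol synthase, had 31.0, 30.5 and 34.6 CPM in rve5-2 at 29 °C, against 126, 92.8 and 114 CPM in rve5-2 at 22 °C. In WT it had 27.5, 78.2 and 66.7 CPM at 29 °C, against 170.0, 170.1 and 172 CPM at 22 °C. Libraries of the temperatures were apart in both genotypes. It fell 3.47-fold in rve5-2 (log2 fold change -1.79, SE 0.28, edgeR adjusted p = 0.000911) and 2.97-fold in WT (log2 fold change -1.57, SE 0.27, edgeR adjusted p = 0.0035).

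The glycosyltransferases differed less between temperatures. UGT78D2 had 26.0, 27.9 and 25.3 CPM in rve5-2 at 29 °C, against 36.1, 31.6 and 35.4 CPM in rve5-2 at 22 °C. In WT it had 27.0, 36.4 and 31.9 CPM at 29 °C, against 43.8, 52.4 and 48.9 CPM at 22 °C. The 29 °C libraries lay below the 22 °C libraries throughout, by 1.302-fold in rve5-2 (log2 fold change -0.38, SE 0.11, edgeR adjusted p = 0.022) and 1.52-fold in WT (log2 fold change -0.61, SE 0.11, edgeR adjusted p = 0.00373). In rve5-2 this call ended when replicate 1 or 3 of either temperature was left out (edgeR adjusted p from 0.0626 to 0.0840).

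UGT78D1, the rhamnosyltransferase, had 57.8, 48.0 and 39.9 CPM in rve5-2 at 29 °C, against 61.3, 73.2 and 56.7 CPM in rve5-2 at 22 °C. In WT it had 60.3, 69.6 and 46.3 CPM at 29 °C, against 81.3, 58.7 and 74.4 CPM at 22 °C. Libraries overlapped in both genotypes and neither comparison passed the test (log2 fold change -0.39, edgeR adjusted p = 0.114, in rve5-2 and -0.28, edgeR adjusted p = 0.287, in WT).

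**Figure D3:**
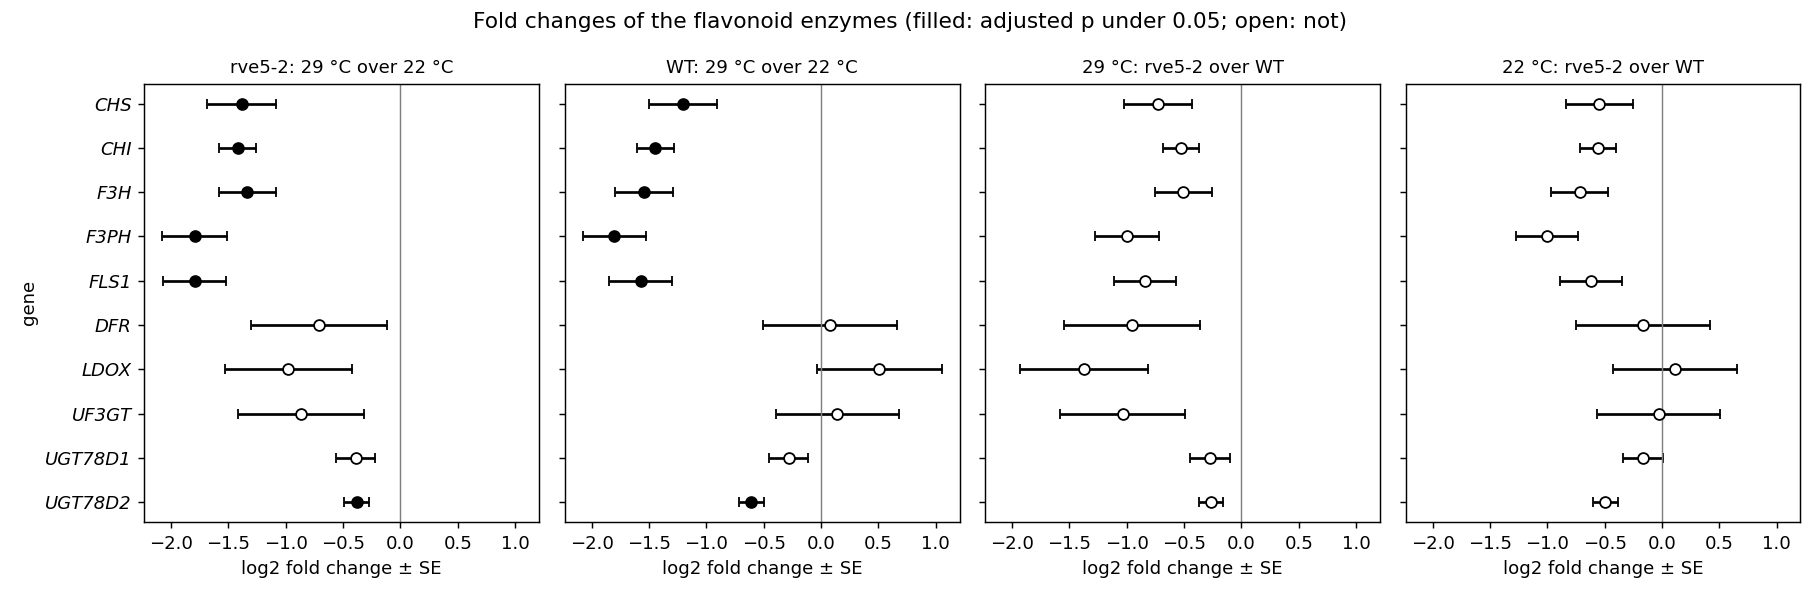
Log2 fold change (x axis, points) with SE (bars) of each enzyme gene (y axis) for 29 °C over 22 °C in each genotype and for rve5-2 over WT at each temperature; filled points passed the test at an adjusted p under 0.05. The 6 filled genes are the same in both genotypes, no genotype point is filled, and DFR, LDOX and UF3GT have the widest bars.

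The anthocyanin-branch enzymes did not pass the test in either genotype. DFR had 3.46, 2.66 and 1.95 CPM in rve5-2 at 29 °C, against 3.84, 5.98 and 3.44 CPM in rve5-2 at 22 °C. In WT it had 2.19, 11.7 and 1.77 CPM at 29 °C, against 6.88, 4.62 and 3.35 CPM at 22 °C. The WT group at 29 °C thus held a library above, and a pair below, all 3 at 22 °C.

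LDOX had 3.26, 3.32 and 1.68 CPM in rve5-2 at 29 °C, against 3.97, 7.88 and 4.40 CPM in rve5-2 at 22 °C. In WT it had 3.47, 14.6 and 3.28 CPM at 29 °C, against 6.89, 5.27 and 2.85 CPM at 22 °C. Its 29 °C libraries were all lower in rve5-2 and were mixed in WT. UF3GT had 1.14, 0.80 and 1.23 CPM in rve5-2 at 29 °C, against 2.201, 2.15 and 1.43 CPM in rve5-2 at 22 °C. In WT it had 1.02, 4.53 and 0.96 CPM at 29 °C, against 2.80, 1.72 and 1.39 CPM at 22 °C. As for DFR, 1 WT library at 29 °C was above and 2 were below all those at 22 °C, while for LDOX the lower 2 lay within the range at 22 °C. Counting the 6 called members, 8 of 10 were lower in every library at 29 °C in rve5-2 and 6 of 10 in WT, beside 23.3% and 18.3% of all genes tested.

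Log2 fold changes of DFR, LDOX and UF3GT were -0.71, -0.98 and -0.87 in rve5-2 (edgeR adjusted p = 0.408, 0.215 and 0.266) and 0.08, 0.51 and 0.14 in WT (edgeR adjusted p = 0.946, 0.563 and 0.886). The WT values rested on WT at 29 °C replicate 2. Without it they were -1.32 for DFR (edgeR adjusted p = 0.0417), -0.57 for LDOX (edgeR adjusted p = 0.399) and -0.99 for UF3GT (edgeR adjusted p = 0.128), so that all 3 turned direction and DFR was called lower. The highest library of WT at 29 °C was 4.44 to 6.61 times the lowest for these 3 genes, and 1.35 to 3.02 times for the other 7 members. Some 50-base stretches of these genes also occur elsewhere in the genome, 1.45% for DFR, 3.73% for LDOX and 4.72% for UF3GT, and how reads were assigned there is not stated.

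WT at 29 °C replicate 2 was the highest of all 12 libraries in 3 of 10 members (DFR, LDOX and UF3GT), beside 7.15% of all genes tested. For DFR it stood at 11.7 CPM, with 6.88 CPM in the next library. The same library was highest in 5 of 20 further structural genes of the pathway and in 3 of 17 flavonoid regulators, named here after their values were seen. Among the structural genes were TT19, an anthocyanin carrier of the glutathione transferase family (11.3 CPM, next 5.19 CPM), 5MAT, a malonyltransferase (3.87 CPM, next 2.995 CPM), and the glucosyltransferase UGT75C1 (8.33 CPM, next 6.96 CPM). The acyltransferase A3G2COUT1 (18.1 CPM, next 17.8 CPM) and UGT78D3 (0.60 CPM, next 0.22 CPM) completed the 5. The regulators were the MYB factors MYB111 (10.7 CPM, next 7.46 CPM), PAP1 (3.33 CPM, next 2.099 CPM) and PAP2 (1.39 CPM, next 0.54 CPM), of which PAP1 and PAP2 are activators of anthocyanin synthesis. It was highest in 0 of 9 precursor genes and 1 of 10 lignin and sinapate genes.

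**Figure D4:**
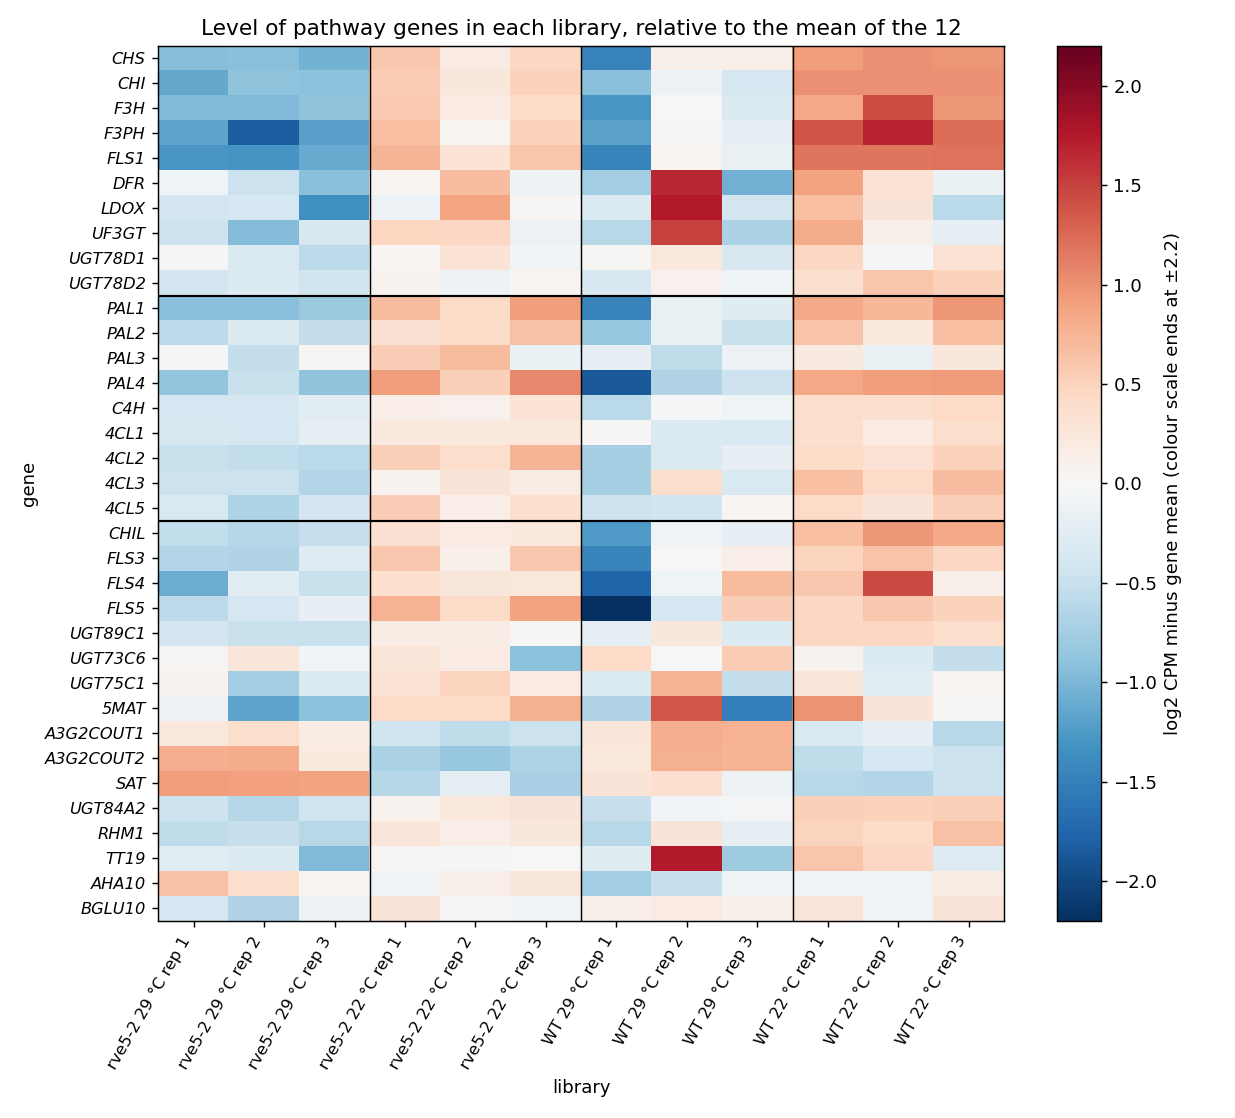
Log2 CPM minus the gene's mean over 12 libraries (colour, red high and blue low, scale ending at ±2.2) for each library (x axis) and gene (y axis: the 10 members, 9 precursor genes, and further structural genes with a mean of at least 1 CPM). The flavonol route is red at 22 °C and mostly blue at 29 °C, and the precursor genes are mostly red at 22 °C and mostly blue at 29 °C. DFR, LDOX, UF3GT, 5MAT and TT19 are deepest red in WT at 29 °C replicate 2.

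Likeness between members was compared within and between 2 sets that hold 8 of the 10. The root mean square difference between centred log2 CPM profiles over 12 libraries had a median of 0.24 for the 10 pairs within CHS, CHI, F3H, F3PH and FLS1 and of 0.32 for the 3 pairs within DFR, LDOX and UF3GT. Between the sets it was 0.87 (15 pairs). UGT78D1 and UGT78D2, which are in neither set, differed by 0.29 from each other, by 0.50 to 0.94 from the first set and by 0.53 to 0.71 from the other. The sets follow the branches of the pathway but were drawn with the values known, so they are a description, over genes that share libraries and depth. The FPKM of DFR relative to that of FLS1 in the same library, the balance between the competing branch enzymes, was 0.123, 0.0959 and 0.0620 in rve5-2 at 29 °C, against 0.0334, 0.0708 and 0.0331 in rve5-2 at 22 °C. In WT it was 0.0875, 0.165 and 0.0291 at 29 °C, against 0.0444, 0.0298 and 0.0214 at 22 °C. Libraries overlapped between temperatures in both genotypes. FLS1 relative to CHS was 0.190 to 0.233 in rve5-2 at 29 °C, against 0.268 to 0.277 in rve5-2 at 22 °C. In WT this ratio was 0.201 to 0.250 at 29 °C, against 0.280 to 0.297 at 22 °C. Temperatures did not overlap in either genotype, nor did the genotypes overlap at 22 °C. How often ratios of other gene pairs are apart in this way was not counted. CHI relative to CHS was 0.215 to 0.266 in rve5-2 at 29 °C, against 0.240 to 0.255 in rve5-2 at 22 °C, and 0.352, 0.206 and 0.170 in WT at 29 °C, against 0.244 to 0.258 in WT at 22 °C. Temperatures overlapped in rve5-2, and the WT libraries at 29 °C lay on both sides of those at 22 °C. UGT78D1 relative to UGT78D2 overlapped between temperatures in both genotypes. That ratio was 1.32 to 1.85 at 29 °C and 1.33 to 1.93 at 22 °C in rve5-2, and 1.21 to 1.86 and 0.93 to 1.54 in WT.

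Root markers moved with temperature beside the flavonol route. Of 14 markers 9 were called lower in rve5-2 and 8 in WT, with 0 called higher, and the mean log2 CPM of the list was 0.23 ± 0.67 in rve5-2 at 29 °C, 2.84 ± 0.14 in rve5-2 at 22 °C, 0.25 ± 1.32 for WT at 29 °C and 2.66 ± 0.50 for WT at 22 °C (SD over 3 libraries). With this root score as a covariate 0 members were called in either genotype, and 228 of all genes were called in rve5-2 and 74 in WT. The log2 fold change of CHS was then -0.11 in rve5-2 and -0.22 in WT, and that of CHI -0.83 and -0.94. Since the score follows temperature closely, temperature and root share cannot be told apart here. WT at 29 °C replicate 1, lowest in root markers, was also the lowest of its group in 6 of 10 members, the 6 that were called. The share of all genes lowest in that library was not counted. Other groups were mixed. In rve5-2 at 22 °C, replicate 2 was lowest in root score and lowest in all 6 of the called members (CHS 345 CPM). In WT at 22 °C, replicate 2 was lowest in root score but highest in CHS (607 CPM), F3H, F3PH and UGT78D2, with CHI and FLS1 between. In rve5-2 at 29 °C, replicate 2 was lowest in root score and also in F3H, F3PH and FLS1. It was highest there in CHI, UGT78D2 and, narrowly, CHS (160.0 CPM, next 158 CPM). Green tissue markers moved the other way, 7 of 8 called higher in rve5-2 and 4 of 8 in WT; their part in the result was not tested.

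The interaction, the warm response of rve5-2 minus that of WT, was called for 0 of 10 members and for 0% of all genes tested. At an unadjusted edgeR p under 0.05 there were 1070 genes and 0 members, DESeq2 called 44 genes and limma on log2(FPKM + 0.1) called 1, none a member. For CHS, CHI, F3H, F3PH and FLS1 the log2 difference lay between -0.22 (FLS1, SE 0.38) and 0.21 (F3H, SE 0.35). For DFR, LDOX and UF3GT it was -0.79 (SE 0.83), -1.48 (SE 0.77) and -1.01 (SE 0.76), and without WT at 29 °C replicate 2 it was 0.61, -0.41 and 0.12. It was -0.11 for UGT78D1 (SE 0.24) and 0.23 for UGT78D2 (SE 0.15). Differences within errors of this size were not detectable with 3 libraries a group.

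At 29 °C, rve5-2 was compared with WT. The value was negative for all 10 members, with a median of -0.79 beside -0.007 over all genes, but 0 of 10 passed the test, beside 0.466% of all genes called, and all 10 overlapped between genotypes, while 5.50% of genes were lower in every rve5-2 library. Log2 fold changes were -0.999 for F3PH (SE 0.28, edgeR adjusted p = 0.226), -0.84 for FLS1 (SE 0.27, edgeR adjusted p = 0.329), -0.73 for CHS, -0.53 for CHI and -0.51 for F3H. They were -1.37 for LDOX, -1.04 for UF3GT, -0.96 for DFR, -0.27 for UGT78D1 and -0.27 for UGT78D2. In 6 members the overlap came from WT at 29 °C replicate 1: CHS, for instance, had 158, 160.0 and 148 CPM in rve5-2, against 109.8, 329.7 and 332 CPM in WT. Without that library 5 members were called lower in rve5-2, namely CHS (-1.09, edgeR adjusted p = 8.48e-05), FLS1 (-1.18, edgeR adjusted p = 0.000166), CHI (-0.72, edgeR adjusted p = 0.0034), F3PH (-1.28, edgeR adjusted p = 0.00663) and F3H (-0.79, edgeR adjusted p = 0.0183). Without WT at 29 °C replicate 2 instead, no member was called, and DFR (0.44) and UF3GT (0.095) turned positive. The other members stayed negative, with CHI at -0.34 and F3H at -0.24. DESeq2 called F3PH with all 12 libraries (adjusted p = 0.0234), among 345 genes called in all. Leaving out a library in turn gave 52 to 558 calls over all genes, against 102 in the main fit. The fit without WT at 29 °C replicate 1 thus called at most 558 of all genes.

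At 22 °C, 0 of 10 members passed the test, beside 0.192% of all genes called. The flavonol route and UGT78D2 were nevertheless lower in every rve5-2 library, 6 of 10 members beside 7.17% of all genes. F3PH, for example, had 18.7, 12.2 and 16.7 CPM in rve5-2, against 30.7, 37.5 and 27.6 CPM in WT, and CHI had 68.0, 54.9 and 65.5 CPM in rve5-2, against 91.96, 92.2 and 92.6 CPM in WT. Log2 fold changes were -1.01 for F3PH (SE 0.27, edgeR adjusted p = 0.397), -0.72 for F3H (SE 0.25, edgeR adjusted p = 0.613), -0.62 for FLS1, -0.56 for CHI, -0.55 for CHS and -0.49 for UGT78D2 (SE 0.11, edgeR adjusted p = 0.183). UGT78D1 (-0.17), DFR (-0.16), LDOX (0.11) and UF3GT (-0.03) overlapped.

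The calls at 22 °C differed between fits, and the cause was not tested. Fitting only the 6 libraries compared called CHS, CHI, F3PH and FLS1 lower (edgeR adjusted p from 0.0266 to 0.0478), and leaving out WT at 29 °C replicate 1, which is no part of the comparison, called these 4 and UGT78D2 (edgeR adjusted p from 0.0125 to 0.0367). DESeq2 called F3PH (adjusted p = 0.0347) and UGT78D2 (adjusted p = 0.0115). Over all genes the main fit called 42, the fit of only the groups compared 75, and DESeq2 143. With a library left out in turn 25 to 82 genes were called, so the fit without WT at 29 °C replicate 1 called at most 82 of all genes. The root score at 22 °C was 2.84 ± 0.14 in rve5-2 and 2.66 ± 0.50 in WT, and 0 of 14 root markers were called, with a median log2 fold change of 0.12. Of these, PLT1 and PLT2 were lower and IRT1 was higher in every rve5-2 library, named here after their values were seen. Green tissue markers were higher in rve5-2, 3 of 8 at 22 °C and 5 of 8 at 29 °C; their part in the result was not tested. Both genotype comparisons and both temperature comparisons draw on the same 4 groups, so their values are not independent.

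The pathway's neighbours were followed in 4 further lists, whose counts stand beside 13.0% of all genes called lower and 13.0% called higher at 29 °C in rve5-2, and 7.41% and 8.08% in WT. Precursor supply fell in both genotypes, 8 of 9 genes with 0 rising, with a median log2 fold change of -0.83 in rve5-2 and -0.75 in WT. PAL1, a phenylalanine ammonia-lyase at the head of the route, had 66.6, 67.0 and 71.8 CPM in rve5-2 at 29 °C, against 202, 171 and 240.5 CPM in rve5-2 at 22 °C. In WT it had 45.5, 113 and 105 CPM at 29 °C, against 227, 210.2 and 249 CPM at 22 °C, again with replicate 1 lowest at 29 °C. Log2 fold changes in rve5-2 and in WT were -1.58 and -1.38 for PAL1, -0.94 and -0.97 for PAL2, -1.58 and -1.77 for PAL4, and -1.10 and -0.80 for the coumarate ligase 4CL2. PAL3 was the gene not called in either (-0.56 and -0.38).

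Of 22 further flavonoid structural genes 20 were tested, and 6 fell and 3 rose in rve5-2, while 4 fell and 3 rose in WT (medians -0.53 and -0.34). The 3 rises in rve5-2 were near the share of all genes called higher, and nothing is read from them. CHIL, a helper protein of chalcone synthase, had 35.1, 33.2 and 35.9 CPM in rve5-2 at 29 °C, against 64.5, 58.3 and 60.6 CPM in rve5-2 at 22 °C, and in WT 21.7, 47.9 and 45.3 CPM at 29 °C, against 80.9, 100.6 and 91.1 CPM at 22 °C (WT log2 fold change -1.25, edgeR adjusted p = 0.00338). UGT84A2, a sinapate glucosyltransferase, fell in both (-0.71 in rve5-2 and -0.72 in WT), and UGT89C1, which adds rhamnose to flavonols, fell in both as well (-0.59 in rve5-2 and -0.51 in WT). The genes called higher, given here as values only, were A3G2COUT2 (1.37 in rve5-2 and 1.07 in WT), A3G2COUT1 (0.75 in rve5-2 and 1.003 in WT) and SAT (1.40 in rve5-2 and 0.77 in WT). SAT, which adds sinapoyl groups, had 23.1, 22.7 and 22.6 CPM in rve5-2 at 29 °C, against 7.81, 10.6 and 7.42 CPM in rve5-2 at 22 °C.

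Of 20 regulators 17 were tested, and 5 fell and 0 rose in rve5-2, while 3 fell and 1 rose in WT (medians -0.30 and -0.29), the 1 rise in WT being no more than the share of all genes. LBD38 and LBD39, repressors of anthocyanin synthesis under nitrogen supply, fell (-1.01 and -0.47 in rve5-2, and -0.85 and -0.44 in WT), as did the bHLH factor GL3 (-1.42 in rve5-2 and -1.24 in WT), and EGL3, its close relative, fell in rve5-2 (-0.53) and did not pass the test in WT (0.26). MYB12, a driver of the early genes, completed the 5 that fell in rve5-2 (-1.498, edgeR adjusted p = 0.0427). In WT, MYB12 was lower in every 29 °C library but did not pass the test (-1.099, edgeR adjusted p = 0.143). MYB11 (-0.801 in rve5-2 and -1.538 in WT) and MYB111 (-0.0488 and 0.344) did not pass the test in either genotype. MYBL2, a repressor of the anthocyanin branch, rose in WT (log2 fold change 1.06, SE 0.19, edgeR adjusted p = 0.00445). It was also the 1 gene of these 4 lists called between genotypes, 0 being called at 29 °C. At 22 °C MYBL2 had 7.78, 7.78 and 5.66 CPM in rve5-2, against 2.56, 2.98 and 2.31 CPM in WT (log2 fold change 1.43, SE 0.20, edgeR adjusted p = 0.00654). In the lignin and sinapate branch, 6 of 10 genes fell and 1 rose in rve5-2, and 5 fell and 1 rose in WT (medians -0.32 and -0.33). The 1 rise in each genotype was near the share of all genes called higher, and nothing is read from it. CAD4, an alcohol dehydrogenase of lignin synthesis, fell (-0.61 in rve5-2 and -0.75 in WT), as did CCoAOMT1, a methyltransferase (-0.36 and -0.48), and REF1, an aldehyde dehydrogenase (-0.71 and -0.43), while SNG1, sinapoylglucose malate sinapoyltransferase, rose (0.62 and 0.63).

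Among 13435 genes with a mean of at least 5 FPKM, those nearest in profile to the mean of the members' centred log2 CPM over 12 libraries were 4CL3 (root mean square difference 0.207), AT4G27560 (0.225), RHM1 (0.228), IGMT5 (0.232), AAE18 (0.243) and CYP79B2 (0.250). 4CL3 is the coumarate ligase tied to flavonoids and RHM1 makes the rhamnose donor, and both stand in the lists above; CYP79B2 and IGMT5 belong to indole glucosinolate synthesis. RHM1 had 111, 115 and 107 CPM in rve5-2 at 29 °C, against 195, 182 and 194 CPM in rve5-2 at 22 °C, and in WT 106, 198 and 142 CPM at 29 °C, against 228, 218 and 254 CPM at 22 °C. Its 29 °C libraries were lower throughout, as for the flavonol route, and replicate 1 was the lowest of WT at 29 °C. RHM1 was picked for its likeness over these same libraries, so this likeness is no separate result. The members' mean blends the sets compared above and need not be the profile of any member.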

How the data were processed

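RNA libraries (Trizol extraction and an Illumina TruSeq kit, per the labels' protocols) of 12 seedling samples were analysed, 3 in each of 4 groups taken from the labels. The deposited table holds whole-number counts per gene, analysed as raw counts, and the authors' FPKM, in which a count of 0 holds a fixed 0.0001. The submitters' processing notes name cutadapt 1.9, HISAT2 2.0.4, StringTie 1.3.4d, edgeR and TAIR10, without saying which made which column. Of 32399 genes 7821 had a count of 0 throughout. In R 4.3.3 with edgeR 4.0.16, genes passing filterByExpr (minimum count 10) were scaled by TMM and fitted with 1 mean per group over all 12 libraries by the quasi-likelihood method. Benjamini-Hochberg adjustment ran over 21870 genes, with calls under 0.05. SE values are |log2 fold change| divided by the root of F. Per-gene counts limit precision, and fragments are inferred from the spacing of low counts. On simulated data for WT at 29 °C against WT at 22 °C (21557 genes), 14, 52, 76 and 86% of 50 genes each with log2 changes of 0.5, 1, 2 and 3 were recovered, with 3 false calls. The alternatives tried were no filter, median-of-ratios scaling, DESeq2 1.42.0, limma 3.58.1 on log2(FPKM + 1) and log2(FPKM + 0.1) with a mean FPKM of at least 0.5, only the groups compared, a replicate block, the root score (mean log2 CPM, prior count 2, of 14 root markers), counts divided by their spacing, and each library left out. Members are always named. Of each other list up to 4 called genes per comparison with the smallest adjusted p are named, then the 6 genes of nearest profile. MYB11, MYB12 and MYB111 were added as drivers of the early genes, with their values known. The members and lists were chosen with earlier results of these data known. Of the table's loci 31900 were found in the TAIR10.1 annotation, and 9854 had the same start and end there, on all 5 chromosomes.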

Additional observations from a re-analysis of the deposited data

How the results depend on the processing

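Of 1040 member values under alternatives, 964 kept their direction and side of the threshold. With the root score as a covariate the members called fell to 0 in both comparisons of 29 °C with 22 °C (rve5-2 warmth and WT warmth below), and all genes called to 228 in rve5-2, 74 in WT and, between genotypes at 29 °C, changed to 173, against 5696, 3387 and 102. Fitting only the groups compared gave 1687 genes for WT, 4 members and 75 genes at 22 °C, and 38 genes at 29 °C. DESeq2 gave 2 members and 143 genes at 22 °C (42 in edgeR), 1 member and 345 genes at 29 °C, and 44 genes in the interaction, where limma on log2(FPKM + 0.1) gave 1. The cause of these shifts was not tested.

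Leaving out a library in turn gave 5 to 6 members and 3590 to 6958 genes in rve5-2 warmth, 5 to 7 and 1747 to 3621 in WT warmth, 0 to 5 and 52 to 558 between genotypes at 29 °C, 0 to 5 and 25 to 82 at 22 °C, and 0 to 0 and 0 to 1 in the interaction. The highs of 5 members between genotypes came without WT at 29 °C replicate 1.

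The replicate number as a block left the members called at 6 in rve5-2 warmth (5954 genes), 6 in WT warmth (3829), 0 between genotypes at 29 °C (123), 0 at 22 °C (42) and 0 in the interaction (0 genes); same-numbered libraries correlated from -0.02 to 0.21, so the numbers are not taken as a pairing.

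Directions turned only for values that had not passed the test. In WT warmth DFR was -0.25 and UF3GT -0.048 with limma on log2(FPKM + 1), -0.42 and -0.20 with log2(FPKM + 0.1), and -0.24 and -0.012 with the block. With the root score, rve5-2 warmth was 0.32 for DFR and 0.37 for UF3GT, and the interaction 0.11 for CHS and 0.017 for FLS1. With a library left out, WT warmth ran from -1.32 to 0.49 for DFR, -0.57 to 0.85 for LDOX and -0.99 to 0.50 for UF3GT; the genotype difference at 29 °C from -1.37 to 0.44 for DFR and -1.39 to 0.095 for UF3GT; and at 22 °C from -0.44 to 0.15 for DFR, -0.26 to 0.41 for LDOX and -0.23 to 0.31 for UF3GT. The interaction ran from -0.55 to 0.044 for CHS, -0.17 to 0.22 for CHI, -0.078 to 0.48 for F3H, -0.27 to 0.24 for F3PH, -0.56 to 0.063 for FLS1, -1.20 to 0.61 for DFR, -1.36 to 0.12 for UF3GT and -0.25 to 0.030 for UGT78D1. Depth limits UF3GT most, with as few as 50 counts in a library.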
